A study of Homo sapiens with 4 samples.

Results

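The 48 genes described here encode ribosome biogenesis factors, most of them residents of the nucleolus. They were chosen by name from the symbol column of the count table, and each of the 48 was found there once among 35606 genes. All 48 passed the filter on low counts, as did 14750 genes in all. The study compared K562 cells labelled as expressing the fusion JAZF1-SUZ12 with K562 cells labelled mock, with 2 libraries of poly(A)-selected RNA in each group. K562 cells come from a human leukaemia and express many genes of red cell precursors. The fusion, known from endometrial stromal sarcoma, joins JAZF1 to SUZ12, which belongs to the core of Polycomb repressive complex 2. Libraries of cells with JAZF1-SUZ12 are also called fusion libraries below. No drug, time point or other genotype is given in the labels, and the vector, the level of the fusion protein and whether a line was 1 clone are not given in the sources used here. Nothing states that the 2 libraries of a group came from separate cultures, so p-values measure only the spread between these libraries, which may be technical.

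Ribosomes are made in the nucleolus, where RNA polymerase I transcribes the long precursor of the ribosomal RNAs. Small nucleolar ribonucleoproteins (snoRNPs) modify that precursor, the small-subunit (SSU) processome and later factors cut and fold its small-subunit part, and a separate set of factors assembles the large subunit. The genes for these proteins are transcribed by RNA polymerase II, tend to be expressed together in growing cells, and are well-known targets of MYC. Ribosomal proteins themselves are encoded by another group of genes, which is described beside them.

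The libraries held between 17260936 and 24423028 estimated counts, the least and the most in the JAZF1-SUZ12 group, with both mock libraries between them. As a check of the labels, JAZF1 was at 0.935 ± 0.487 CPM in the mock group and at 31.4 ± 2.73 CPM in the fusion group (mean and SD of 2 libraries), a rise called by edgeR (adjusted p = 1.07e-10). Markers of the line were present in every library: the summed level of 10 erythroid genes was 11611 and 11284 CPM in mock and 13337 and 12967 CPM in JAZF1-SUZ12 libraries, and 5 of the 10 were called higher. Although the samples carry uterus as their source, LUM, COL3A1 and HOXA11 among 10 uterine stromal genes had at most 3 counts in every library. The sum of those 10 was 15.1 and 14.5 CPM in mock and 32.3 and 32.8 CPM in JAZF1-SUZ12 libraries, where COL1A1 was called higher. PGR and COL1A2, also among them, were detected in every library and not called. PGR was at 4.87 and 4.41 CPM in mock libraries 1 and 2 and 6.79 and 5.92 CPM in fusion libraries 1 and 2. COL1A2 was at 3.20 and 2.56 CPM in mock libraries 1 and 2 and 2.26 and 4.59 CPM in fusion libraries 1 and 2. For 6 epithelial genes the sums ranged from 76.8 to 92.8 CPM, for 6 lymphocyte genes from 18.3 to 22.0 CPM and for 5 monocyte genes from 24.2 to 36.9 CPM, with EPCAM and LYZ called lower. The part of erythroid or other marker changes in the results below was not tested.

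All 48 ribosome biogenesis genes had a lower fitted level in JAZF1-SUZ12 than in mock libraries, except that FBL and DDX52 were slightly higher with upper-quartile scaling and FBL with a filter of a mean of at least 50 counts. By edgeR's quasi-likelihood test with Benjamini-Hochberg adjustment over all genes tested, 38 of the 48 fell at an adjusted p under 0.05 and none rose. Over all 14750 genes tested, 11.4% were called lower and 13.3% higher. Most of the 48 are abundant, and 45 of them had a mean of at least 1000 counts. Over the 4816 tested genes at that level, 24.7% were called lower and 8.37% higher, so the share of 79.2% among the 48 stood above both backgrounds. The 48 genes and the lists set beside them below were chosen with earlier results of these data known. How far the distance from the backgrounds follows from that choice was not tested. The decreases were small. The median log2 fold change was -0.27, a level 17.1% lower, with a range from -0.47 to -0.022, against medians of 0.0032 over all genes tested and -0.070 over the abundant ones. No member rose even at an unadjusted p under 0.05, and 5 of the 10 members that were not called had an unadjusted p below that value. These levels are in counts per 1000000 counts of the scaled library (CPM), so they are shares of the messenger RNA, and in bulk samples fewer cells of a type and less RNA per cell cannot be told apart.

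**Figure D1:**
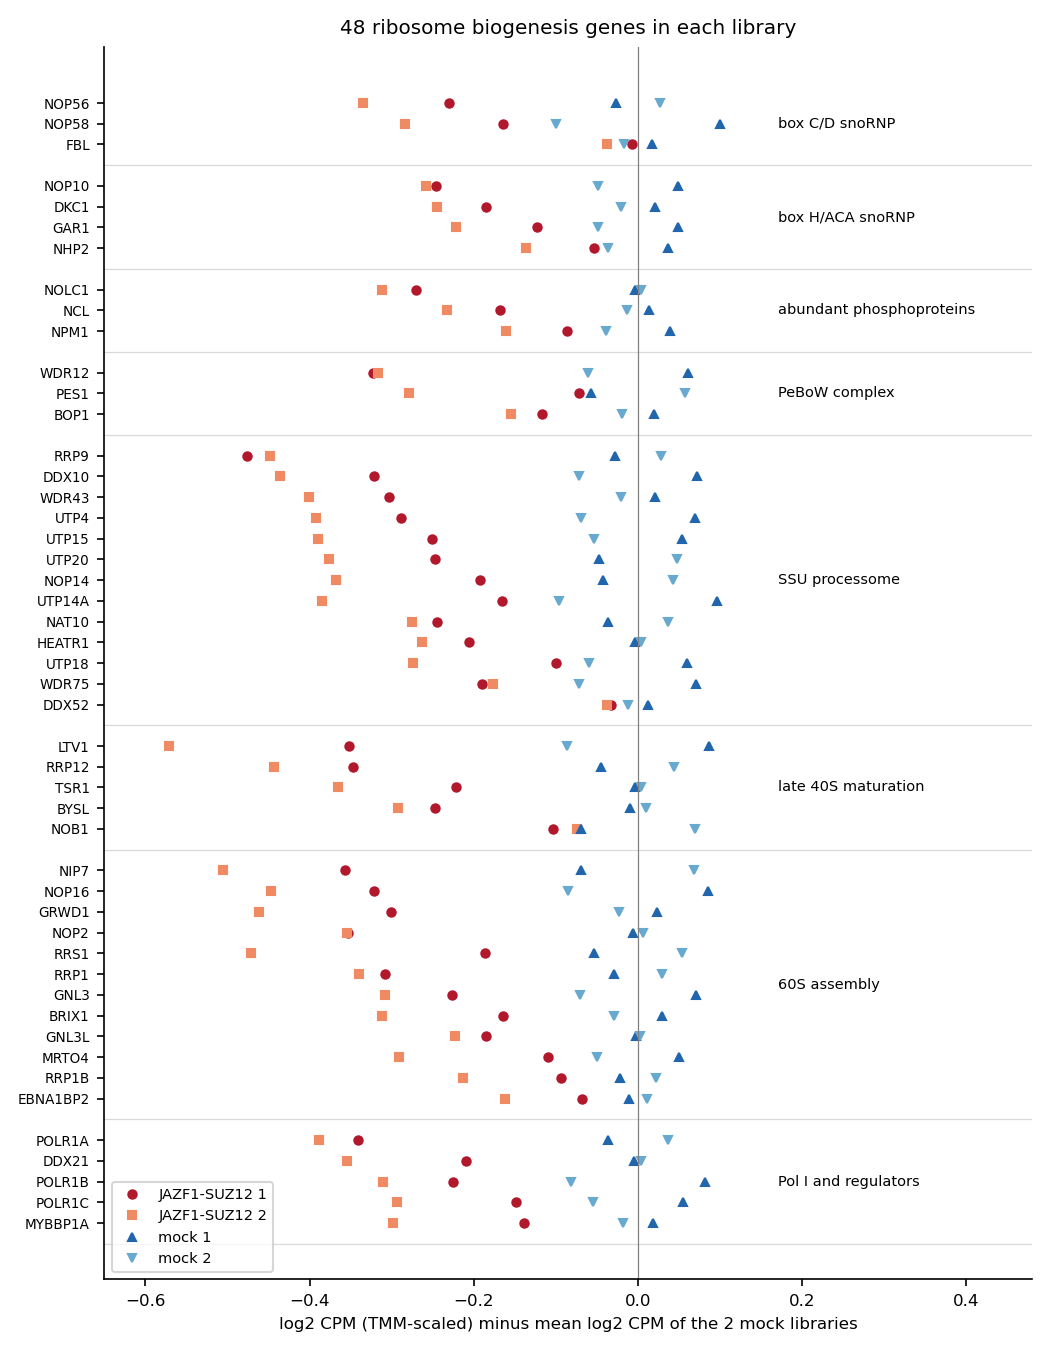
Each row is one of the 48 genes, grouped by role, and each point is one library. The x axis gives log2 CPM minus the mean log2 CPM of the 2 mock libraries. For 47 genes both JAZF1-SUZ12 points lie to the left of both mock points, and FBL is the exception.

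Both JAZF1-SUZ12 libraries lay below both mock libraries for 47 of the 48 genes. That held for 30.3% of all genes tested and for 51% of those at a mean of 1000 counts or more. The groups overlapped for FBL alone. The summed level of the 48 genes was 8508 and 8317 CPM in the mock libraries and 7484 and 7058 CPM in the JAZF1-SUZ12 libraries, a mean difference of -13.6%. JAZF1-SUZ12 replicate 2, the deepest library, was the lowest of the 4 libraries for 44 genes, and JAZF1-SUZ12 replicate 1, the shallowest, was the lowest for the other 4. The median difference from the mock mean was -0.31 in the former and -0.21 in the latter on the log2 scale. The libraries thus differed in the size of the decrease and not in its direction. Without JAZF1-SUZ12 replicate 2, 27 of the 48 genes were called lower, and without mock replicate 1, 29 were. Without JAZF1-SUZ12 replicate 1, 42 were called, with GAR1, BOP1, PES1, UTP18 and RRP1B added and WDR75 lost.

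Genes of RNA polymerase I and its regulators all fell, 5 of 5, with a median log2 fold change of -0.27. POLR1A encodes the largest subunit of the polymerase (ENSG00000068654; GRCh38 chromosome 2, 86020216 to 86106155, minus strand). It was at 175 and 184 CPM in mock libraries 1 and 2 and 142 and 137 CPM in fusion libraries 1 and 2. The log2 fold change was -0.37 ± 0.051 (SE; edgeR, adjusted p = 7.73e-05), the smallest p-value among the 48. The gene for a further large catalytic subunit, POLR1B, had a log2 fold change of -0.27 (adjusted p = 0.00757 by edgeR), and that of POLR1C, a subunit shared with RNA polymerase III, was -0.22 (adjusted p = 0.0316 by edgeR). Both calls were lost without mock replicate 1, with log2 fold changes of -0.20 and -0.18, and that of POLR1C also without JAZF1-SUZ12 replicate 2, with -0.15. DDX21, a nucleolar RNA helicase of the DEAD-box family (ENSG00000165732; GRCh38 chromosome 10, 68956128 to 68985073, plus strand), was among the most abundant members. Its level was 670.0 and 674 CPM in mock libraries 1 and 2 and 581 and 525 CPM in fusion libraries 1 and 2, and the mock libraries lay much closer to each other than the JAZF1-SUZ12 libraries did. The log2 fold change of DDX21 was -0.28 ± 0.048 (SE; edgeR, adjusted p = 0.000463). MYBBP1A, a nucleolar protein that binds MYB, fell by less, with a log2 fold change of -0.22 (adjusted p = 0.0149 by edgeR). This call was lost without JAZF1-SUZ12 replicate 2, with -0.14, and without mock replicate 1, with -0.21.

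The SSU processome, the large particle that folds and first cuts the small-subunit precursor, was represented by 13 genes, of which 11 fell. Their median log2 fold change was -0.28. RRP9, a protein of the U3 snoRNP (ENSG00000114767; GRCh38 chromosome 3, 51933430 to 51941941, minus strand), was at 39.0 and 40.5 CPM in mock libraries 1 and 2 and 28.6 and 29.2 CPM in fusion libraries 1 and 2. The groups were well separated, and the log2 fold change was -0.46 ± 0.074 (SE; edgeR, adjusted p = 0.000292). WDR43, a WD-repeat subunit of the processome (ENSG00000163811; GRCh38 chromosome 2, 28894643 to 28948222, plus strand), was at 120.5 and 117 CPM in mock libraries 1 and 2 and 96.2 and 89.9 CPM in fusion libraries 1 and 2. Its log2 fold change was -0.35 ± 0.056 (SE; edgeR, adjusted p = 0.000268). The UTP genes, named for proteins that associate with U3, had log2 fold changes of -0.34 for UTP4, -0.32 for UTP15, -0.32 for UTP20, -0.28 for UTP14A and -0.19 for UTP18. All of these except UTP18 were called (edgeR, adjusted p between 0.000584 and 0.0163), and UTP18 narrowly missed the threshold (edgeR, adjusted p = 0.0536). The calls of UTP14A and UTP15 were lost without JAZF1-SUZ12 replicate 2, with -0.17 and -0.25, and without mock replicate 1, with -0.19 and -0.28. HEATR1 and NOP14, also scaffold proteins of the particle, fell by 0.24 and 0.28 on the log2 scale. NAT10, which acetylates small-subunit RNA, changed by -0.26 (adjusted p = 0.00125 by edgeR), and the helicase gene DDX10 by -0.38 (adjusted p = 0.000858 by edgeR). DDX52, another helicase gene, was at 75.1 and 73.8 CPM in mock libraries 1 and 2 and 72.7 and 72.5 CPM in fusion libraries 1 and 2 and was not called (edgeR, adjusted p = 0.702). WDR75 changed by -0.18 (adjusted p = 0.0425 by edgeR), a call that was lost in 3 of the 4 fits that left out a library, with values there from -0.19 to -0.12. It was also lost with DESeq2, upper-quartile scaling, scaling to total counts and a filter of a mean of at least 50 counts, with values from -0.19 to -0.13.

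Of 5 genes for later steps of small-subunit maturation, 4 fell, and their median log2 fold change was -0.30. LTV1, a factor that leaves the small subunit shortly before it is complete (ENSG00000135521; GRCh38 chromosome 6, 143843344 to 143863812, plus strand), had the largest decrease of the 48. It was at 82.2 and 72.9 CPM in mock libraries 1 and 2 and 60.7 and 52.1 CPM in fusion libraries 1 and 2, a level 27.6% lower by the fit. The log2 fold change was -0.47 ± 0.077 (SE; edgeR, adjusted p = 0.000369). Without JAZF1-SUZ12 replicate 2 it was -0.35, still called. RRP12, needed for export of pre-ribosomes (ENSG00000052749; GRCh38 chromosome 10, 97356358 to 97426076, minus strand), was at 71.8 and 76.3 CPM in mock libraries 1 and 2 and 58.2 and 54.4 CPM in fusion libraries 1 and 2. Its log2 fold change was -0.40 ± 0.063 (SE; edgeR, adjusted p = 0.000283). TSR1 and BYSL, assembly factors of the small subunit, fell by 0.30 and 0.27 on the log2 scale (edgeR, adjusted p = 0.00123 and 0.00317). NOB1, the nuclease that makes the final cut in the small-subunit RNA, was not called, with a log2 fold change of -0.090 (adjusted p = 0.297 by edgeR).

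Genes for assembly of the large subunit numbered 12 outside the PeBoW complex, and 10 of them fell, with a median log2 fold change of -0.30. NIP7, a factor for pre-ribosomal RNA processing (ENSG00000132603; GRCh38 chromosome 16, 69337996 to 69343111, plus strand), was at 56.1 and 61.7 CPM in mock libraries 1 and 2 and 46.0 and 41.4 CPM in fusion libraries 1 and 2. The log2 fold change was -0.44 ± 0.073 (SE; edgeR, adjusted p = 0.000414). Decreases of similar size were those of NOP16 with -0.39, GRWD1 with -0.38 and NOP2, a methyltransferase of large-subunit RNA, with -0.35. RRS1, which acts in the assembly of the large subunit, changed by -0.33 (adjusted p = 0.0152 by edgeR), and its call was lost without JAZF1-SUZ12 replicate 2, where the log2 fold change was -0.19. GNL3, the GTPase known as nucleostemin, fell by 0.27 on the log2 scale (edgeR, adjusted p = 0.00294), and the related GNL3L by 0.20 (edgeR, adjusted p = 0.0115). The paralogs RRP1 and RRP1B had log2 fold changes of -0.32 and -0.16, and only RRP1 was called (edgeR, adjusted p = 0.000634 and 0.0568); the difference between them was not tested. BRIX1 and MRTO4 changed by -0.24 and -0.20, and EBNA1BP2 was not called at -0.12 (adjusted p = 0.14 by edgeR). Without JAZF1-SUZ12 replicate 2 the calls of GNL3L, BRIX1 and MRTO4 were lost, with -0.19, -0.16 and -0.11, and that of MRTO4 also without mock replicate 1, with -0.16. In the PeBoW complex, which is required for maturation of large-subunit RNA, WDR12 fell while BOP1 and PES1 did not pass. WDR12 was at 89.1 and 81.9 CPM in mock libraries 1 and 2 and 68.3 and 68.6 CPM in fusion libraries 1 and 2, and its log2 fold change was -0.32 ± 0.061 (SE; edgeR, adjusted p = 0.00117). BOP1 had -0.14 (adjusted p = 0.0504 by edgeR) and PES1 had -0.18 (adjusted p = 0.0582 by edgeR).

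**Figure D2:**
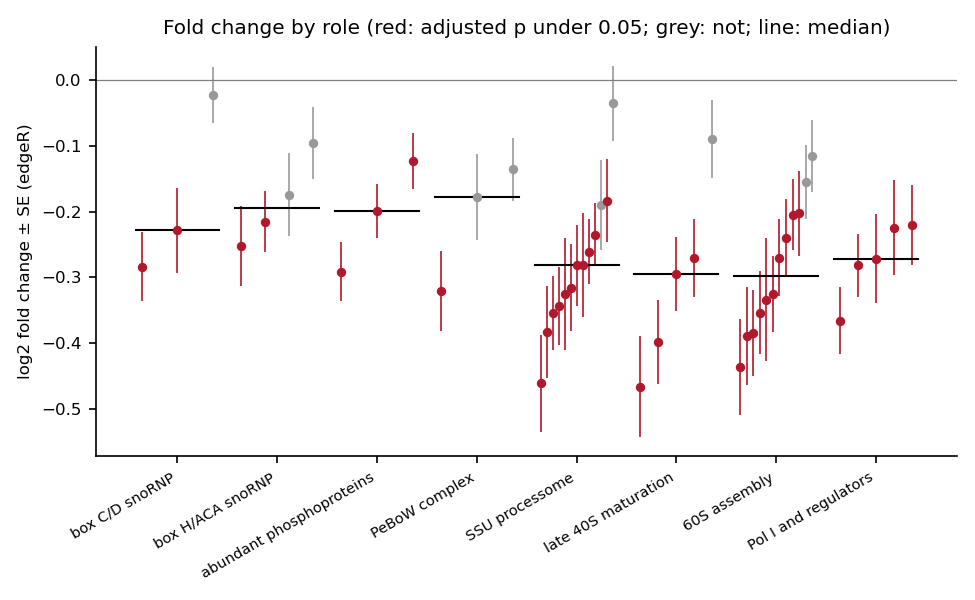
Points are edgeR log2 fold changes of the 48 genes with their standard errors, grouped by role on the x axis. Red points passed an adjusted p of 0.05, grey points did not, and black lines are the role medians, which lie between -0.30 and -0.18.

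Some genes of the snoRNPs were called lower and others were not, as in most other role groups. The box C/D snoRNP, which carries out methylation of ribosomal RNA, has a core that includes NOP56, NOP58 and the methyltransferase FBL. NOP56 (ENSG00000101361; GRCh38 chromosome 20, 2652145 to 2658393, plus strand) was at 161 and 167 CPM in mock libraries 1 and 2 and 140.2 and 130.4 CPM in fusion libraries 1 and 2. Its log2 fold change was -0.28 ± 0.053 (SE; edgeR, adjusted p = 0.00104). NOP58 changed by -0.23 (adjusted p = 0.0165 by edgeR), and its call was lost without JAZF1-SUZ12 replicate 2, with a log2 fold change of -0.17, and without mock replicate 1, with -0.13. FBL was at 420.3 and 410.2 CPM in mock libraries 1 and 2 and 413 and 404 CPM in fusion libraries 1 and 2, and these values overlapped. The log2 fold change of FBL was -0.022 ± 0.042 (SE; edgeR, adjusted p = 0.749). In the box H/ACA snoRNP, which converts uridine to pseudouridine, the catalytic subunit DKC1 fell (ENSG00000130826; GRCh38 chromosome X, 154762742 to 154777689, plus strand). DKC1 was at 257 and 249.6 CPM in mock libraries 1 and 2 and 223 and 214 CPM in fusion libraries 1 and 2, with a log2 fold change of -0.22 ± 0.046 (SE; edgeR, adjusted p = 0.00303). NOP10 also fell, with -0.25 (adjusted p = 0.00605 by edgeR), whereas GAR1 and NHP2 did not pass, with -0.17 and -0.10 (edgeR, adjusted p = 0.0565 and 0.222). The call of NOP10 was lost without mock replicate 1, with -0.21. The differences among the genes of either snoRNP were not tested.

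The abundant nucleolar phosphoproteins all fell, 3 of 3. NOLC1 is a chaperone of snoRNPs (ENSG00000166197; GRCh38 chromosome 10, 102152176 to 102163871, plus strand). It was at 289 and 290.3 CPM in mock libraries 1 and 2 and 240.2 and 233 CPM in fusion libraries 1 and 2, and the mock libraries were almost equal. The log2 fold change was -0.29 ± 0.045 (SE; edgeR, adjusted p = 0.000196). NCL, nucleolin, fell from 927 ± 12.3 CPM to 807 ± 25.5 CPM (mean and SD of 2 libraries), and edgeR gave an adjusted p of 0.00212. NPM1, nucleophosmin, went from 1641 ± 62.4 CPM to 1506 ± 55.0 CPM (SD, n = 2 each), and this was among the smallest called decreases, -0.12 (adjusted p = 0.0448 by edgeR). The call of NPM1 was lost without JAZF1-SUZ12 replicate 2, with a log2 fold change of -0.087, and without mock replicate 1, with -0.092. It was also lost with upper-quartile scaling, with -0.076, and with a filter of a mean of at least 50 counts, with -0.099. Per kilobase of the longest annotated transcript, NPM1, FBL and NCL were the most abundant of the 48 in mock, with 933, 297 and 229.8 CPM, and UTP15 was the least abundant with 6.37 CPM.

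The genes were also looked up in the authors' deposited table of the same comparison, which was made from the same libraries and is therefore no independent check. Of the 48, 46 had in the authors' deposited table a negative log2 fold change, with a median of -0.26. The authors' deposited table called 20 of them lower and none higher at an adjusted p under 0.05, where it called 3.57% of all genes with an adjusted p lower and 4.93% higher. All 20 were among the 38 called here. The 2 genes with a positive value in the authors' deposited table were POLR1B, with 0.081 (adjusted p = 0.837), and EBNA1BP2, with 0.028 (adjusted p = 0.936). POLR1B was called lower here, so its direction depended on which of the 2 analyses was used. The largest decrease in the authors' deposited table was that of RRP1, with -0.49 (adjusted p = 0.000221).

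**Figure D3:**
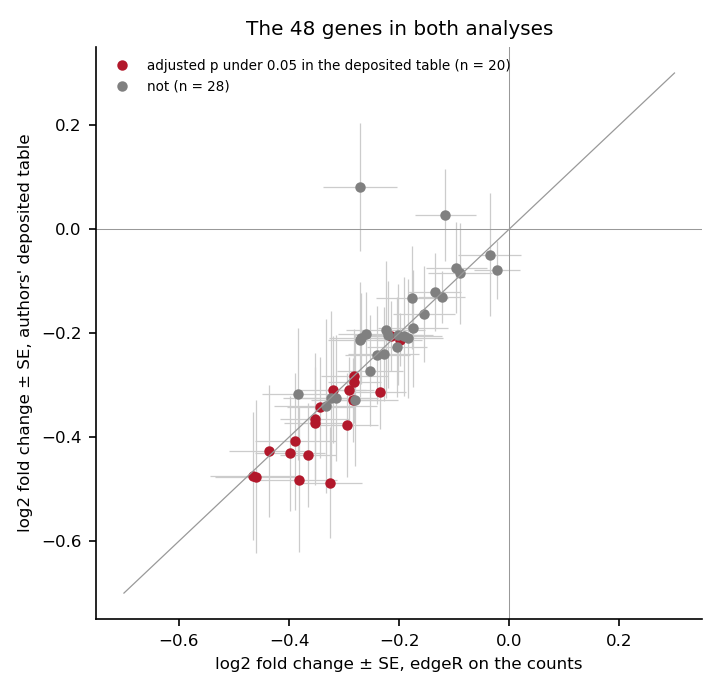
Each point is one of the 48 genes, with the edgeR log2 fold change on the x axis and that of the authors' deposited table on the y axis, both with standard errors, and the line marks equal values. Red points are the 20 genes with an adjusted p under 0.05 in the deposited table, and POLR1B and EBNA1BP2 are the 2 points above 0.

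A further 84 ribosome biogenesis factors outside the 48 were examined for comparison. Of these, 54 (64.3%) fell and 2 rose, and their median log2 fold change was -0.21. The shares called lower were 11.4% over all genes tested and 24.7% over those with a mean of at least 1000 counts. All 33 additional SSU processome genes had a negative value and 26 of them (78.8%) fell. The smallest p-values among the 84 were those of DDX18, NOL6 and DDX56, with log2 fold changes of -0.33, -0.41 and -0.36 (edgeR, adjusted p = 0.000119, 0.000243 and 0.000211). The 2 that rose were NOP53, a protein that also acts in p53 regulation, with 0.20 (adjusted p = 0.00878 by edgeR), and RIOK3, an atypical kinase, with 0.16 (adjusted p = 0.0308 by edgeR). The NOP53 call was lost without JAZF1-SUZ12 replicate 1, with a log2 fold change of 0.13, and the RIOK3 call was lost when any 1 library was left out, with values between 0.14 and 0.16. In the remaining RNA polymerase I machinery 6 of 13 genes (46.2%) fell and none rose. They included RRN3, the factor that recruits the polymerase, with -0.35 (adjusted p = 0.00223 by edgeR), UBTF, which binds ribosomal DNA, with -0.24 (adjusted p = 0.00554 by edgeR), and NOL11 with -0.25 (adjusted p = 0.00592 by edgeR). NOL11 is also counted among the 84. In the authors' deposited table RRN3, UBTF and NOL11 were not called (adjusted p = 0.0767, 0.455 and 0.556). RIOK3 was called higher in the authors' deposited table, with 0.36 (adjusted p = 0.00356). NOP53 was not called there, with 0.22 (adjusted p = 0.0501), and DDX18, NOL6 and DDX56 were called lower. Without JAZF1-SUZ12 replicate 2, UBTF and NOL11 were not called, with log2 fold changes of -0.16 and -0.17.

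Genes for the cytosolic ribosomal proteins gave other values. Of 79, 2 (2.53%) were called lower and 1 higher, and the groups overlapped for 60. Over all genes tested 11.4% were called lower and 13.3% higher. Where the mean was at least 1000 counts, the shares were 24.7% and 8.37%. The groups overlapped for 5703 of all 14750 genes tested and for 1480 of the 4816 at that mean. The median log2 fold change of the 79 was 0.012, and its sign depended on the libraries. It turned to -0.033 when JAZF1-SUZ12 replicate 1 was left out and to -0.030 when mock replicate 2 was. The summed level of the 79 was 68416 and 66396 CPM in mock and 69895 and 66630 CPM in JAZF1-SUZ12 libraries, so the groups overlapped in the sum. RPS26 and FAU were called lower, with -0.27 (adjusted p = 0.00269 by edgeR) and -0.15 (adjusted p = 0.0291 by edgeR), and RPLP0 was called higher, with 0.11 (adjusted p = 0.0382 by edgeR). The calls of FAU and RPLP0 were each lost when single libraries were left out: FAU had an adjusted p of 0.198 without JAZF1-SUZ12 replicate 2 and 0.114 without mock replicate 1, and RPLP0 had 0.0656 without JAZF1-SUZ12 replicate 1, 0.120 without mock replicate 1 and 0.174 without mock replicate 2. Many ribosomal protein genes have near-identical pseudogenes, and estimated counts can be divided among them.

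**Figure D4:**
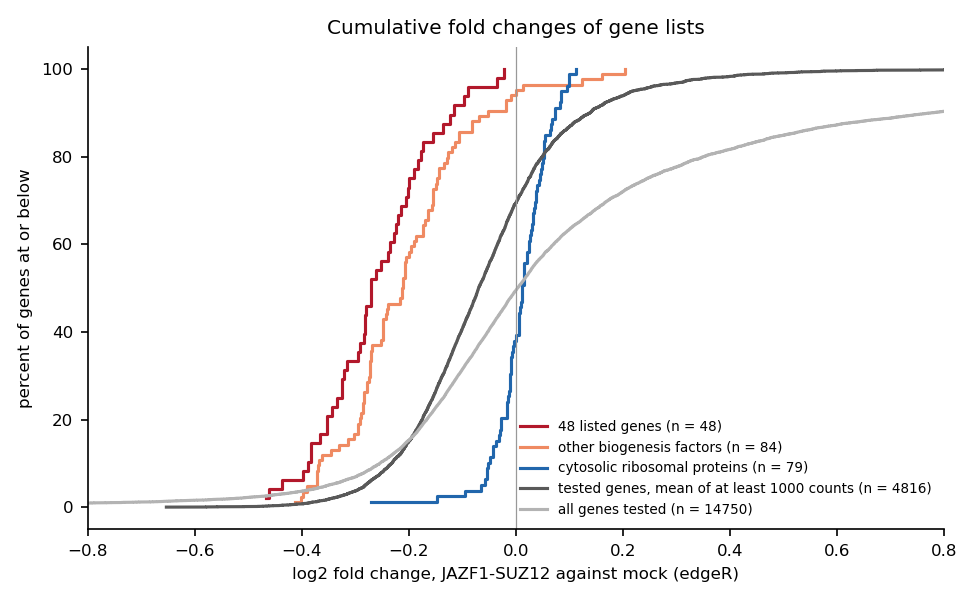
Curves give the percent of genes in each list at or below the edgeR log2 fold change on the x axis, which is cut at -0.8 and 0.8. The 48 genes and the 84 other biogenesis factors lie to the left, with medians of -0.27 and -0.21, the 79 ribosomal protein genes rise steeply around 0, and the 4816 abundant genes have a median of -0.070.

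The MYC network was examined because MYC, with its partner MAX, binds the E-box at many of these genes. Of 12 listed genes, 11 were tested. Among these, 2 (18.2%) were called lower, 2 higher and 7 neither, with a median log2 fold change of -0.0089. The shares over all genes tested were 11.4% lower and 13.3% higher. MYC was at 253 and 263 CPM in mock libraries 1 and 2 and 238 and 245 CPM in fusion libraries 1 and 2. Both JAZF1-SUZ12 values lay below both mock values, but the difference did not pass, with a log2 fold change of -0.10 ± 0.046 (SE; edgeR, adjusted p = 0.143). Such a separation held for 51% of tested genes with a mean of at least 1000 counts. MAX was at 58.4 and 59.0 CPM in mock libraries 1 and 2 and 48.6 and 47.97 CPM in fusion libraries 1 and 2, and it fell, with a log2 fold change of -0.28 ± 0.062 (SE; edgeR, adjusted p = 0.0035). MXI1 and MXD4 encode proteins that pair with MAX and repress transcription. MXI1 was at 32.3 and 35.3 CPM in mock libraries 1 and 2 and 46.4 and 49.7 CPM in fusion libraries 1 and 2 and rose, with 0.51 ± 0.074 (SE; edgeR, adjusted p = 0.000121). In the authors' deposited table MXI1 was not called, with 0.27 (adjusted p = 0.269). MXD4 had 0.25 (adjusted p = 0.03 by edgeR), a call that was lost when any 1 library was left out, with adjusted p-values from 0.0627 to 0.140, and with DESeq2. MLX, which pairs with the glucose-responsive MondoA, fell, with -0.36 (adjusted p = 0.000561 by edgeR). In the authors' deposited table MAX was called lower, with -0.50 (adjusted p = 0.00227). MXD4 and MLX were not called there, with 0.22 and -0.27 (adjusted p = 0.526 and 0.127).

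RefSeq start windows on GRCh38.p14, running from 250 bases before to 50 after each start, were found for 41 of the 48 genes, 47 windows in all; BOP1, DDX52, NOLC1, NOP58, RRP12, RRP1B and RRS1 were not matched. The E-box CACGTG, which reads the same on both strands, was present in 21 of the 47 windows, or 44.7%. It was present in 7.26% of all 35116 windows, in 9.17% of those of tested genes and in 10.1% of those of tested genes whose mean count was 1000 or more. The share was 28.9% for the other biogenesis factors and 5.13% for ribosomal proteins. The sites of the 4 genes with an E-box and the smallest p-values are shown, so that the motif behind these shares can be read in its context. Each is 30 bases with the E-box in capitals, on the strand of the gene:
WDR43: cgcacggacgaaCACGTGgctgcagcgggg
RRP9: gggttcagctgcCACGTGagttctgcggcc
LTV1: gtcctggggctgCACGTGtggtgaggccta
DDX21: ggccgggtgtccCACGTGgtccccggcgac
They lie at chr2:28894658-28894687 on the plus strand, chr3:51941892-51941921 on the minus strand, chr6:143843354-143843383 on the plus strand and chr10:68956604-68956633 on the plus strand. The first base of the E-box is 3 bases after the start for WDR43, 5 before it for RRP9, 28 after it for LTV1 and 31 before it for DDX21. No binding was measured in these samples, and a match is only a description of the letters.

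**Figure D5:**
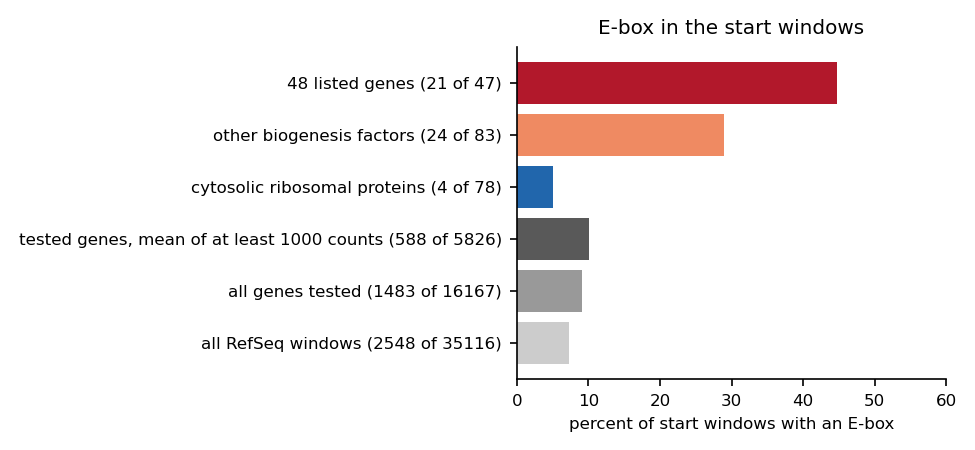
Bars give the percent of RefSeq start windows of 300 bases that hold an E-box, with the number of windows in brackets. The bar of the 48 listed genes reaches 44.7%, that of the other biogenesis factors 28.9%, and the others lie between 5.13% and 10.1%.

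Within the 48, genes with and without an E-box had nearly the same decrease. The median log2 fold change was -0.27 for the 20 genes with one and -0.27 for the 21 without, and 15 and 19 of them were called lower. Tested genes with no matched start window were left out of the next shares. Among the other tested genes that are not members, 17.2% of the 1357 with an E-box and 11.6% of the 9717 without were called lower. Where the mean count was 1000 or more, the shares were 30.8% of 533 and 23.6% of 3452. These shares are descriptions with no test. Of the other motifs searched on both strands, the ETS motif CCGGAAG was in 38.3% of the members' windows, in 10.3% of all windows, in 16.2% of those of tested genes and in 20.5% of those at a mean count of 1000 or more. The CCAAT box was in 38.3% of the members' windows and in 34.6%, 34.6% and 36.1% of these backgrounds. The GATA motif AGATAA was in 1 of the members' 47 windows, or 2.13%, and in 10.3%, 6.10% and 5.27% of the backgrounds.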

How the data were processed

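Poly(A)-selected, directional libraries of K562 RNA were made with an NEBNext kit, per the labels' protocols. The authors deposited estimated counts per gene, not normalized, of which 33.9% to 37.4% per library are not whole; kallisto 0.46.2, fastp 0.20.1, DESeq2 1.30.1 and hg38 are named per the submitters' processing notes, without their roles. The annotation and how transcripts were summed are not given in the sources used here. The authors also deposited their own comparison: per the file headers it holds a mean signal (normalized counts), a log2 fold change with its standard error, a test score, and p-values. Design and tests had assumed counts, so estimated counts were rounded to whole numbers.

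Here, edgeR 4.0.16 (R 4.3.3; filterByExpr, TMM, quasi-likelihood F test, two-sided, group as the only term) was fitted to all 4 libraries, with Benjamini-Hochberg adjustment over 14750 genes and 0.05 as threshold. Depth ran from 17260936 to 24423028 estimated counts. Standard errors are the size of the fold change over the square root of F, and SDs are over 2 libraries. CPM are counts per 1000000 of the TMM-scaled library. Replicates were not copies: chi-square per degree of freedom was 3.86 and 3.61 within groups. In counts simulated for this comparison over 14456 genes, edgeR recovered 30 of 100 genes changed 1.2-fold and 80 of 100 changed 2-fold, with 10 false calls. Positions and transcript lengths are from GENCODE 29 (GRCh38), matched by Ensembl ID, and start windows from RefSeq, matched by symbol or gene ID.

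The members and lists were chosen with earlier results of these data known, and the motifs after the fold changes were seen. Values in every library are given for the 8 called members with the smallest p in each direction and, in role groups without one, for the member with the smallest p, with up to 3 called genes in each direction from the other lists. MYC is named in any case, and FBL and DDX52 are given in full after their values were seen. The list of 15 snoRNA host RNAs could not be used, since 0 of them matched a symbol in the table. Alternatives were other scalings (DESeq2 size factors, upper quartile, total counts), DESeq2 1.42.0, limma-voom (limma 3.58.1), no filter, a mean of at least 50 counts, the replicate number as a block, a threshold of 0.01, and leaving out each library.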

Additional observations from a re-analysis of the deposited data

How the results depend on the processing

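The median of the 48 genes stayed negative in all 13 alternatives, 25 of the 48 were called lower in each of the 12 that kept the 0.05 threshold, and none was called higher in any. With upper-quartile scaling the median was -0.22, FBL and DDX52 turned to 0.025 and 0.013, 34 of the 48 were called lower and 1013 genes in all were, with 69.7% of all calls higher against 53.7%; the cause was not tested. That scaling moved the median of all genes to 0.052, and the median of the 48 relative to it was -0.27, as with TMM. The calls it lost were those of NPM1, WDR75, MRTO4 and POLR1C. Scaling to total counts lost those of WDR75 and POLR1C. With a mean of at least 50 counts, NPM1 and WDR75 were lost and FBL was 0.0013. DESeq2 called 33 of the 48 lower, losing UTP15, WDR75, RRS1, MRTO4 and POLR1C, and 2407 genes in all, 1051 of them lower, against 3643 and 1688; the cause was not tested. The threshold of 0.01 left 28 of the 48 and by construction 2045 genes, 1255 higher and 790 lower.

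Leaving out each library in turn, with the lone library assumed to vary like the other group, gave medians of the 48 from -0.31 to -0.21, from 27 to 42 of them called lower, and from 1070 to 1941 genes called lower in all. For ribosomal proteins the median turned to -0.033 without JAZF1-SUZ12 replicate 1 and to -0.030 without mock replicate 2, and its highest value was 0.048. Calls lost without JAZF1-SUZ12 replicate 2 were those of NOP58, NPM1, UTP14A, UTP15, WDR75, RRS1, BRIX1, GNL3L, MRTO4, POLR1C and MYBBP1A, with adjusted p from 0.0575 to 0.323 (edgeR). Without mock replicate 1 they were those of NOP58, NOP10, NPM1, UTP14A, UTP15, WDR75, MRTO4, POLR1B, POLR1C and MYBBP1A, with adjusted p from 0.0558 to 0.322 (edgeR), and without JAZF1-SUZ12 replicate 1 that of WDR75.

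Whether same-numbered libraries were prepared together is not given in the sources used here. The correlation of their deviations over 11826 genes was 0.028, and a single value from these libraries cannot decide it. A fit with the replicate number as a block called 4061 genes and 43 of the 48, adding GAR1, BOP1, PES1, UTP18 and RRP1B.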

Other observations

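Several of the 48 genes carry small nucleolar RNAs, counted together with small Cajal body RNAs, within their bounds on the same strand in GENCODE 29. There were 8 such genes, or 16.7% of the 48, namely NOP56, NOP58, DKC1, NCL, WDR43, TSR1, GNL3 and POLR1C, against 1.64% of 13630 tested protein-coding genes. That background was not limited to abundant genes. All 8 were called lower, as were 79.2% of the 48 in all. Their median log2 fold change was -0.25, and the remaining members had a median of -0.27. Among the 215 such hosts that are not members, 45 were called lower and 21 higher, with a median of -0.034. For comparison, 11.4% of all genes tested were called lower and 13.3% higher. Where the mean was at least 1000 counts, the shares were 24.7% and 8.37%. The small nucleolar RNAs themselves were not analysed here.

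Across the 48 genes, the log2 fold change and the mock level had a Spearman correlation of 0.41, so the less abundant members had the larger decreases. Across all 14750 genes tested it was -0.44. These values cannot be compared directly, because the sets cover different ranges of mock level. In both, the mock level is also the base of the fold change. The lowest mock mean was 0 CPM among all genes tested and 31.4 CPM among the 48. Genes are not independent replicates, all points share the same 4 libraries, and these values are descriptions.

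Pseudogenes named after a member were counted for 11 of the 48 genes. Their share of the counts of gene and pseudogenes together was at most 2.77%, for PES1 in JAZF1-SUZ12 replicate 2, and at most 0.270% for NPM1, which has 49 of them in the table.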
